A study of Homo sapiens with 36 samples.

Results

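Gene expression was compared between day 5 and day 3 of cardiomyocyte differentiation in wild-type H1 cells, a human embryonic stem cell line. The rule takes the 3 wild-type libraries of day 5 and the 3 of day 3, 6 of the 36 libraries of a series that also holds PERK KO cells and days 0, 1, 2 and 10. PERK, encoded by EIF2AK3, is a kinase of the endoplasmic reticulum membrane that slows protein synthesis when unfolded protein builds up. The day 5 group is unedited H1 with 5 days behind it in cardiac differentiation medium, and the day 3 group is the same line after 3 days. Both groups had met the WNT activator CHIR99021 at 5 µM over days 0 to 1. The WNT secretion inhibitor IWP2 was then given at 3 µM over days 2 to 5, so day 3 fell within its use and day 5 at its end, and heparin was given over days 1 to 7. Insulin was added from day 7, after both collections. The series' design text speaks of a collection at day 6 while the sample labels say day 5, and the labels were followed. All libraries come from 1 cell line, and no source used here says that the 3 replicates of a day were separate cultures. The p-values thus measure the spread between replicate libraries, pooled over all 36 libraries unless stated otherwise, and that spread may be technical.

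In this kind of protocol, WNT activation drives stem cells through a primitive streak state into mesoderm marked by MESP1, and WNT inhibition then favours the cardiac fate. Cells leaving cardiac mesoderm switch on the transcription factors NKX2-5, MEF2C, HAND2 and the T-box factors, which together with GATA4 and serum response factor activate the genes of the sarcomere. The sarcomere is the contractile unit of striated muscle, in which myosin thick filaments pull on actin thin filaments anchored at the Z-disc, and calcium released from the sarcoplasmic reticulum triggers each contraction through troponin.

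The 6 libraries held 17.7 M, 18.7 M and 23.3 M counted reads at day 5, against 20.8 M, 19.2 M and 19.3 M at day 3. The day 3 libraries were less alike than the day 5 libraries. Chi-square per degree of freedom between pairs of day 3 libraries was 24.2, 31.6 and 87.2, with the widest gap between replicates 1 and 3, against 10.6, 14.6 and 19.3 between pairs of day 5 libraries. The mean effective length of the counted transcripts was 2612, 2751 and 2588 nt at day 5 and 2798, 2659 and 2507 nt at day 3. EIF2AK3 itself, the gene targeted elsewhere in the series, had 17.4, 22.3 and 20.1 CPM in the day 5 libraries, against 27.7, 21.6 and 16.7 CPM in the day 3 libraries. Its libraries overlapped, and the change was not called (log2 fold change -0.14 ± 0.20, edgeR adjusted p = 0.688).

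Of 19772 genes tested with edgeR's quasi-likelihood test, 3617 (18.3%) were called at a Benjamini-Hochberg adjusted p under 0.05, of which 1876 (9.49%) were higher at day 5 and 1741 (8.81%) lower. At least a 2-fold change was fitted for 1003 of the higher and 913 of the lower genes, and at least an 8-fold change for 189 higher and 115 lower genes. The 3 libraries of one day all lay above the 3 of the other for 5655 tested genes (28.6%), and for 3397 of the called ones. The number called ranged between 2586 without day 3 replicate 2 and 4561 without day 3 replicate 3, and was 2318 when the spread was estimated from the 6 libraries alone. Levels are given as CPM, counts scaled to a common library size of 1 M reads with TMM factors, and log2 fold changes are day 5 over day 3 with their standard error.

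The protein-coding genes with the largest increases, among those that reached 20 CPM without overlap of the libraries, were mostly genes of the heart muscle. SLC8A1, the sodium-calcium exchanger of the heart muscle membrane, had 32.9, 30.2 and 57.9 CPM in the day 5 libraries, against 0.315, 0.311 and 0.280 CPM in the day 3 libraries. MYH6, the myosin heavy chain of atrial and early embryonic heart muscle, had 3643, 2939 and 4468 CPM in the day 5 libraries, against 27.6, 21.7 and 42.6 CPM in the day 3 libraries. Every day 5 value lay far above every day 3 value for both genes, with log2 fold changes of 7.03 ± 0.43 for SLC8A1 and 6.91 ± 0.42 for MYH6 (edgeR adjusted p = 1.39e-13 and 1.39e-13). BRINP2, a gene known mainly from neurons, followed at 6.61, MEF2C at 6.23 and the small heat shock protein gene HSPB7, which is abundant in heart muscle, at 6.14. The remaining 7 were the neurotrophin receptor gene NTRK2, the Z-disc gene ACTN2, NKX2-5, the collagen gene COL3A1, the troponin gene TNNT2, the muscle ubiquitin ligase gene FBXO32 and XIRP1, which codes for an actin-binding protein of heart muscle junctions. Their log2 fold changes lay between 5.05 and 5.77.

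The protein-coding genes with the largest decreases, among those that reached 20 CPM without overlap of the libraries, had no sarcomere gene among them. PCDH19, a protocadherin gene known from the brain, had 1.39, 1.94 and 0.803 CPM in the day 5 libraries, against 31.4, 47.7 and 27.4 CPM in the day 3 libraries. MESP2, which sets somite boundaries and is a close relative of the cardiac mesoderm gene MESP1, had 3.42, 2.49 and 3.97 CPM in the day 5 libraries, against 46.1, 83.2 and 55.4 CPM in the day 3 libraries. Neither gene's groups overlapped, and the log2 fold changes were -4.70 ± 0.38 for PCDH19 and -4.22 ± 0.30 for MESP2 (edgeR adjusted p = 4.85e-11 and 3.16e-12). DRD2, a dopamine receptor gene, stood at 2.18 ± 0.296 CPM at day 5 and 36.3 ± 8.96 CPM at day 3 (SD, n = 3 each). Also among the largest decreases were the adhesion gene CDH11, the intermediate mesoderm and streak factor LHX1, the cell surface peptidase gene ANPEP, the metalloprotease gene ADAM12, the matrix proteoglycan gene BGN, the adenylyl cyclase gene ADCY5, and SAMD3 and TMEM132C. Their fitted changes ran from -3.55 for SAMD3 to -3.15 for CDH11.

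**Figure D1:**
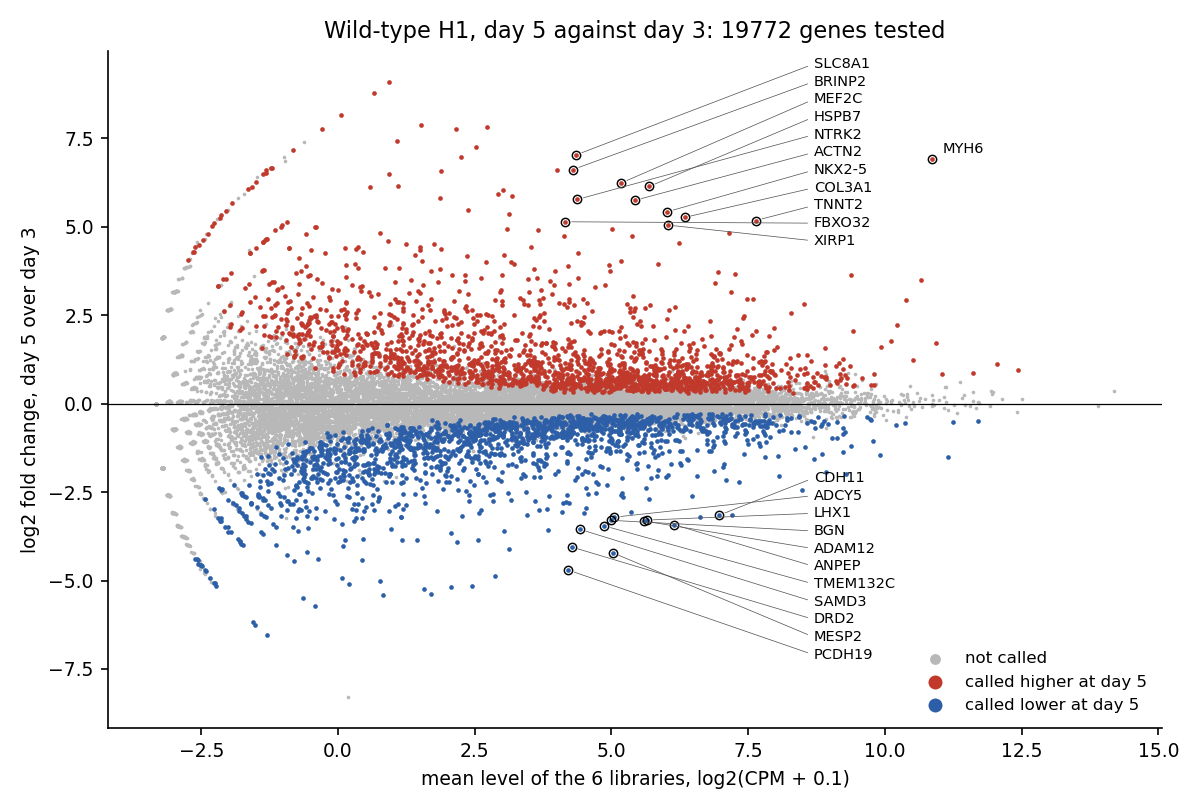
Log2 fold change of day 5 over day 3 (vertical axis) against the mean level of the 6 wild-type libraries as log2(CPM + 0.1) (horizontal axis) for the 19772 genes tested, with called genes in color and the genes named in the text for the size of their increase or decrease circled and labelled. MYH6 stands apart at the upper right because it combined a log2 fold change of 6.91 with a mean of 3683 CPM at day 5.

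Of the 24 cardiac transcription factor genes, 14 were called higher at day 5 and 3 lower, against 9.49% higher and 8.81% lower over all genes tested, with a median log2 fold change of 0.96 against -0.03 for all genes. MEF2C, a MADS-box factor that activates muscle genes, had 54.6, 69.3 and 89.9 CPM in the day 5 libraries, against 1.17, 0.518 and 1.12 CPM in the day 3 libraries. NKX2-5, the homeobox factor that marks committed cardiac progenitors, had 137, 83.4 and 158 CPM in the day 5 libraries, against 2.61, 3.16 and 3.09 CPM in the day 3 libraries. Both were close to silent in each day 3 library and well expressed in each day 5 library, with log2 fold changes of 6.23 ± 0.44 for MEF2C and 5.42 ± 0.38 for NKX2-5 (edgeR adjusted p = 2.99e-12 and 9.65e-12). HAND2, a bHLH factor of the right ventricle and outflow tract, had 225, 203 and 219.9 CPM in the day 5 libraries, against 16.6, 11.3 and 33.5 CPM in the day 3 libraries (log2 fold change 3.40 ± 0.39, edgeR adjusted p = 7.65e-08). HAND1, its relative of the left ventricle and extraembryonic mesoderm, had 770.0, 615 and 611 CPM in the day 5 libraries, against 527, 615 and 830.3 CPM in the day 3 libraries. HAND1 was thus high on both days, its libraries overlapped and no change was called (log2 fold change 0.02 ± 0.35, edgeR adjusted p = 0.989).

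TBX2, a repressor of chamber genes in the atrioventricular canal and outflow tract, had 385, 288 and 352 CPM in the day 5 libraries, against 41.8, 36 and 55.6 CPM in the day 3 libraries (log2 fold change 2.94 ± 0.35, edgeR adjusted p = 3.36e-07). SMYD1, a methyltransferase needed to assemble myofibrils, stood at 272 ± 26.9 CPM at day 5 and 9.68 ± 3.40 CPM at day 3, and MYOCD, the cofactor of serum response factor, at 255 ± 35 CPM at day 5 and 59.4 ± 18.4 CPM at day 3. GATA4, a zinc finger factor already present in mesoderm, had 631, 514 and 542 CPM in the day 5 libraries, against 199.5, 231 and 297 CPM in the day 3 libraries (log2 fold change 1.21 ± 0.24, edgeR adjusted p = 3.33e-04). It was thus well expressed on both days and higher in each day 5 library. ISL1, a LIM homeobox factor of the second heart field, had 92.7, 96.5 and 109 CPM in the day 5 libraries, against 47.3, 43.4 and 50.6 CPM in the day 3 libraries. TBX5, a T-box factor of the left ventricle and atria, had 11.6, 9.23 and 16.2 CPM in the day 5 libraries, against 3.20, 2.80 and 7.07 CPM in the day 3 libraries. The libraries of these 2 genes did not overlap and both were called higher, but without day 3 replicate 2 neither call held, at adjusted p = 0.0746 for ISL1 and 0.0512 for TBX5.

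The called cardiac factors that fell were IRX3, SALL1 and IRX4. IRX3, an Iroquois homeobox factor, had 58.9, 61.0 and 56.6 CPM in the day 5 libraries, against 170.4, 215 and 228 CPM in the day 3 libraries (log2 fold change -1.80 ± 0.21, edgeR adjusted p = 1.45e-07). SALL1, a zinc finger factor of early cardiac progenitors in the mouse, had 359.8, 425 and 351 CPM in the day 5 libraries, against 743, 817 and 664 CPM in the day 3 libraries (log2 fold change -0.97 ± 0.15, edgeR adjusted p = 1.11e-05). Both genes stayed well expressed at day 5. IRX4, the ventricular member of the Iroquois family, averaged below 1 CPM on both days, and its call was lost in 4 of 13 other fits (adjusted p up to 0.112). Not called were GATA6, TBX3, HEY1, HEY2, PROX1 and TEAD1, with fitted changes between -0.59 for HEY1 and 0.70 for TEAD1.

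**Figure D2:**
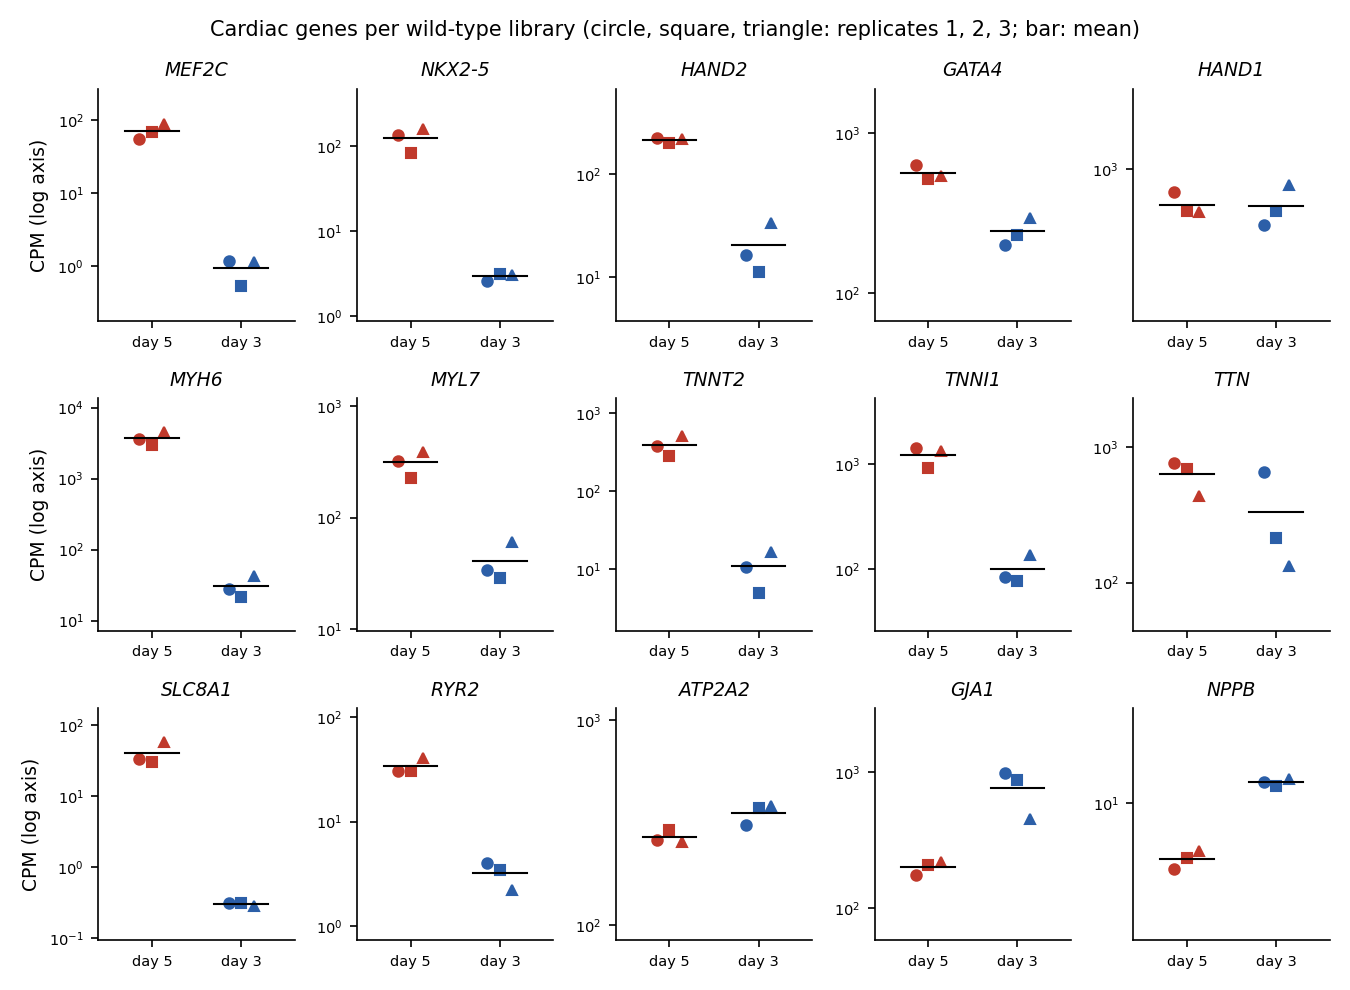
CPM on a log axis in each wild-type library for 15 cardiac genes, with day 5 at the left and day 3 at the right of each panel, a symbol for each replicate number and a bar at the mean of 3 libraries. The day 5 and day 3 libraries overlap for HAND1 and TTN and in no other panel; GJA1, NPPB and ATP2A2 are the panels in which day 5 lies below day 3.

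Among the 15 genes of the anterior second heart field and outflow tract, 5 were called higher and 3 lower. The growth factor genes FGF8 and FGF10 and the guidance gene SEMA3C, all used in outflow tract growth, rose. FGF10 had 60.5, 70.9 and 71.3 CPM in the day 5 libraries, against 36.5, 18.4 and 15.5 CPM in the day 3 libraries (log2 fold change 1.52 ± 0.31, edgeR adjusted p = 5.40e-04). FGF8 had 23.7, 17.7 and 28.0 CPM in the day 5 libraries, against 6.66, 8.81 and 7.63 CPM in the day 3 libraries (log2 fold change 1.59 ± 0.26, edgeR adjusted p = 1.98e-05). The forkhead genes FOXC1 and FOXC2, which lie upstream of outflow tract growth in the mouse and also mark paraxial mesoderm, fell. FOXC1 had 16.1, 28.5 and 21.9 CPM in the day 5 libraries, against 87.3, 105 and 83.3 CPM in the day 3 libraries (log2 fold change -2.05 ± 0.23, edgeR adjusted p = 3.10e-08). TBX1, the T-box gene of the pharyngeal second heart field, stood at 0.743 ± 0.373 CPM at day 5 and 1.55 ± 0.520 CPM at day 3 and was not called. In the posterior second heart field and atrium list 3 of 14 tested genes were called higher and 2 lower, against 9.49% higher and 8.81% lower over all genes tested. MYL7 and TBX5, described under other lists here, were among those higher, while the median log2 fold change of the list was -0.52. NR2F1, NR2F2 and OSR1, regulators of atrial and posterior progenitors, were below 10 CPM on both days and were not called.

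Of 16 tested genes of the thick filament and titin list, 9 were called higher and 0 lower, and their median log2 fold change was 2.58. MYL7, the atrial regulatory light chain, had 320.2, 229 and 393 CPM in the day 5 libraries, against 33.6, 28.8 and 60.1 CPM in the day 3 libraries. MYL4, the atrial essential light chain, had 719, 519 and 700.2 CPM in the day 5 libraries, against 67.1, 58.4 and 151 CPM in the day 3 libraries. The 3 day 5 libraries lay above the 3 day 3 libraries for both (log2 fold changes 2.94 ± 0.37 for MYL7 and 2.81 ± 0.37 for MYL4, edgeR adjusted p = 3.73e-07 and 7.16e-07). Of their ventricular counterparts, MYL2 was listed at 0 TPM in each of the 6 libraries and was not tested, and MYL3 stood at 8.28 ± 1.34 CPM at day 5 and 11.6 ± 3.01 CPM at day 3 without a call (edgeR adjusted p = 0.300). MYH7, the heavy chain of the adult human ventricle, rose as well (log2 fold change 3.84 ± 0.50, edgeR adjusted p = 3.79e-06), to 3.21 CPM at day 5 against 0.217 CPM at day 3. Per length, MYH6 took 99.9, 99.9 and 99.9% of the summed TPM (transcript abundance corrected for length, as RSEM gives it) of MYH6 and MYH7 in the day 5 libraries, against 99.1, 99.3 and 99.5% at day 3. MYH6 and MYH7 lie next to each other and share long stretches of sequence, so the split of reads between them carries some uncertainty.

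MYBPC3, the cardiac myosin-binding protein, and UNC45B, the chaperone that folds muscle myosin, also rose. MYBPC3 had 15.2, 11.1 and 24.4 CPM in the day 5 libraries, against 0.270, 0.466 and 0.505 CPM in the day 3 libraries. UNC45B had 234, 207 and 249.6 CPM in the day 5 libraries, against 16.7, 12.8 and 23.2 CPM in the day 3 libraries. Neither gene's groups overlapped (log2 fold changes 5.36 ± 0.50 for MYBPC3 and 3.71 ± 0.31 for UNC45B, edgeR adjusted p = 4.79e-09 and 2.65e-10). The ubiquitin ligase genes of the sarcomere TRIM55 and TRIM63 were called higher too. TTN, the giant spring protein of the sarcomere, had 762, 689 and 439 CPM in the day 5 libraries, against 658, 212 and 133 CPM in the day 3 libraries. Replicate 1 of day 3 overlapped the day 5 range, and TTN was not called (log2 fold change 0.91 ± 0.46, edgeR adjusted p = 0.182). Without that library its fold change was 1.87 with an adjusted p of 0.00446, and without the filter on low counts it was also called (adjusted p = 0.000598). MYOM1, MYOM2, MYOM3 and MYH7B, which code for the M-band scaffold and a slow myosin, were not called.

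Of 24 tested thin filament and Z-disc genes, 17 were called higher and 1 lower, with a median log2 fold change of 2.32. TNNT2, cardiac troponin T, had 378, 279 and 508 CPM in the day 5 libraries, against 10.7, 4.87 and 16.7 CPM in the day 3 libraries (log2 fold change 5.17 ± 0.39, edgeR adjusted p = 1.26e-11). TNNI1, the slow skeletal and fetal cardiac troponin I, had 1417, 912 and 1352 CPM in the day 5 libraries, against 83.9, 77.5 and 137 CPM in the day 3 libraries (log2 fold change 3.62 ± 0.35, edgeR adjusted p = 2.22e-09). In both genes each day 5 library lay far above each day 3 library. ACTC1, the cardiac actin, had 3260.1, 2138 and 3494 CPM in the day 5 libraries, against 229.9, 172 and 382 CPM in the day 3 libraries (log2 fold change 3.50 ± 0.28, edgeR adjusted p = 6.24e-11). TPM1, the tropomyosin of striated muscle, had 2343, 2055 and 2721 CPM in the day 5 libraries, against 306, 249 and 379.9 CPM in the day 3 libraries (log2 fold change 2.93 ± 0.15, edgeR adjusted p = 3.16e-15). ACTC1 and the actins ACTA1 and ACTA2 are nearly identical in their coding sequence, so counts at these genes may share reads. Per length, ACTC1 averaged 2033 ± 491 TPM at day 5 and 178 ± 52.0 TPM at day 3, and TNNI1 1658 ± 304 TPM at day 5 and 146 ± 40.6 TPM at day 3 (SD, n = 3 each).

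Proteins of the Z-disc anchor the thin filaments, and several of their genes were among the 17. ACTN2, the alpha-actinin that crosslinks actin at the Z-disc, had 78.3, 69.0 and 106 CPM in the day 5 libraries, against 1.44, 1.76 and 1.51 CPM in the day 3 libraries (log2 fold change 5.75 ± 0.31, edgeR adjusted p = 1.17e-14). LDB3, which holds the Z-disc together, had 37.9, 33.8 and 47.5 CPM in the day 5 libraries, against 2.48, 1.97 and 1.74 CPM in the day 3 libraries (log2 fold change 4.26 ± 0.37, edgeR adjusted p = 2.94e-10), and XIRP1 stood at 127 ± 24.4 CPM at day 5 and 3.86 ± 1.13 CPM at day 3. The member that fell was TNNT1, the slow skeletal troponin T, which had 26.8, 25 and 21.5 CPM in the day 5 libraries, against 84.8, 98.0 and 125 CPM in the day 3 libraries (log2 fold change -2.07 ± 0.25, edgeR adjusted p = 1.34e-07). Of the summed TPM of TNNT2 and TNNT1, TNNT2 took 92.4, 90.1 and 95.3% in the day 5 libraries, against 10.4, 3.98 and 11.6% in the day 3 libraries. TNNI3, the adult cardiac troponin I, moved the other way from TNNI1 without a call in the main fit, at 7.84 ± 1.25 CPM at day 5 and 13.3 ± 2.93 CPM at day 3 (log2 fold change -0.76 ± 0.29, edgeR adjusted p = 0.0632). It was called lower with the 18 wild-type libraries alone or the 6 alone (edgeR adjusted p = 0.0348 and 0.0473). Without the filter on low counts or with a stricter one it was also called (edgeR adjusted p = 0.0106 and 0.04785). In the main fit ACTA1, MYPN, PDLIM3, FHL2 and CRYAB were not called either, and MYPN had no reads on either day.

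The promoters of ACTC1, LDB3 and MYL7 are shown because they hold a CArG box, the site that serum response factor binds, made of a core of A and T bases between paired C and G bases. In RefSeq windows from 250 bases before to 50 bases after the annotated start (GRCh38.p14), 17 of the 26 sarcomere genes called higher had an entry. A CArG box on either strand was found in 3 of these 17 genes, ACTC1, LDB3 and MYL7, against 1.6% of all 27305 genes with a window and 1.29% of all 35116 windows. The boxes end 100 bases before the start in ACTC1, 48 in the LDB3 window shown and 52 in MYL7. The windows, given 5′ to 3′ on the gene's strand with the CArG box in capitals, are chr15:34795500-34795799 on the minus strand for ACTC1, chr10:86668261-86668560 on the plus strand for LDB3 and chr7:44141283-44141582 on the minus strand for MYL7.
ACTC1: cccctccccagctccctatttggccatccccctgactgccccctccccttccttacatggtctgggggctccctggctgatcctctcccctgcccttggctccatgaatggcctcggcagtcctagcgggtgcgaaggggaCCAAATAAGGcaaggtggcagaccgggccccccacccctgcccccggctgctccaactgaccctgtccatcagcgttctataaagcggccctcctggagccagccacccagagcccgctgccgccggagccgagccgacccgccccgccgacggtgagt
LDB3: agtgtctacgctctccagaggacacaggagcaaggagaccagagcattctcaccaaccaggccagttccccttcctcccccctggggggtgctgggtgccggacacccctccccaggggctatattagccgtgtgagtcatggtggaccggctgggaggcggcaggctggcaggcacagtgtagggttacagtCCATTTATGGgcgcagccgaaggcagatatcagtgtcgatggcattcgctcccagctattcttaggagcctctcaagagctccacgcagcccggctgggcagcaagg
MYL7: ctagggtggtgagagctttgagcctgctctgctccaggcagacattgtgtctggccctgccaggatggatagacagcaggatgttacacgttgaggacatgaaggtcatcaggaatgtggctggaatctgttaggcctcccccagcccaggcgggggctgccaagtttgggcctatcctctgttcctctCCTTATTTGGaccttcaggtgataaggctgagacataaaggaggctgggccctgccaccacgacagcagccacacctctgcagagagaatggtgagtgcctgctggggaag

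Other motifs were searched on both strands of the same windows. For GATA factors the motif AGATAA was used, and a second form, TGATAA, was searched as well. For T-box factors the motif was AGGTGT. The TATA box was searched as TATAAA. Of the 17 genes, 6 held AGATAA, 2 TGATAA, 6 AGGTGT and 3 TATAAA. Over all 27305 genes with a window the shares were 12.4% for AGATAA, 9.22% for TGATAA, 13.7% for AGGTGT and 14.0% for TATAAA, and over all windows 10.3%, 7.53%, 11.4% and 11.5% in that order. The MYL7 window holds TGATAA and AGGTGT besides the CArG box, and the ACTC1 window holds TATAAA. The GATA forms differ in their first letter alone, some genes have several windows, and a match is a match of letters, with no binding measured.

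Of 13 tested members of the calcium handling and natriuretic peptide list, 5 were called higher and 3 lower, the 3 being NPPA, NPPB and ATP2A2. RYR2, the calcium release channel of the cardiac sarcoplasmic reticulum, had 30.8, 30.5 and 41.1 CPM in the day 5 libraries, against 4.05, 3.47 and 2.19 CPM in the day 3 libraries (log2 fold change 3.39 ± 0.41, edgeR adjusted p = 1.55e-07). JPH2, which ties the reticulum to the cell membrane, had 154, 121 and 137 CPM in the day 5 libraries, against 34.8, 36.1 and 54.4 CPM in the day 3 libraries (log2 fold change 1.72 ± 0.23, edgeR adjusted p = 9.39e-07). PLN, the inhibitor of the reticulum's calcium pump, had 216 counts over the 3 day 5 libraries and 0 over the 3 day 3 libraries, so it was at least 75.9-fold higher when day 3 is set to a floor of 3 counts for its 3 libraries (edgeR adjusted p = 1.59e-06). ATP2A2, the pump itself, had 261, 291 and 253 CPM in the day 5 libraries, against 307, 372 and 382 CPM in the day 3 libraries, and its small decrease was called here but lost in 11 of 14 other fits (adjusted p up to 0.165). TRDN and the calcium store protein gene CASQ2 stayed below 5 CPM and were not called.

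The natriuretic peptide genes fell. NPPB had 3.61, 4.31 and 4.77 CPM in the day 5 libraries, against 13.9, 13.1 and 14.5 CPM in the day 3 libraries (log2 fold change -1.70 ± 0.30, edgeR adjusted p = 1.23e-04). NPPA had 0.443, 0.442 and 0.401 CPM in the day 5 libraries, against 2.84, 1.92 and 3.48 CPM in the day 3 libraries (log2 fold change -2.66 ± 0.48, edgeR adjusted p = 1.75e-04). These hormones are products of chamber muscle, and both genes were low on both days in these libraries, below 15 CPM for NPPB and below 4 CPM for NPPA. Their groups did not overlap.

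Of 19 ion channel and gap junction genes, 9 were called higher and 5 lower (3 lower without day 5 replicate 3). CACNA1D, an L-type calcium channel of pacemaker cells, had 31.2, 30.4 and 39.0 CPM in the day 5 libraries, against 1.40, 0.932 and 1.46 CPM in the day 3 libraries (log2 fold change 4.72 ± 0.31, edgeR adjusted p = 9.69e-13). CACNA1C, the main L-type channel of heart muscle, had 23.9, 21.3 and 25.2 CPM in the day 5 libraries, against 4.77, 4.56 and 6.90 CPM in the day 3 libraries (log2 fold change 2.12 ± 0.24, edgeR adjusted p = 4.22e-08). The potassium channel genes KCNH2, KCNQ1 and KCNJ5 rose as well, with KCNH2 at 170.4 ± 19.1 CPM at day 5 and 72.0 ± 24.6 CPM at day 3. The genes that fell include the gap junction gene GJA1 and the atrial potassium channel gene KCNA5. GJA1 had 175, 207 and 216 CPM in the day 5 libraries, against 978, 872 and 452 CPM in the day 3 libraries (log2 fold change -1.94 ± 0.24, edgeR adjusted p = 2.38e-07). KCNA5 had 4.37, 3.59 and 2.94 CPM in the day 5 libraries, against 26.4, 32.6 and 32.7 CPM in the day 3 libraries (log2 fold change -3.08 ± 0.24, edgeR adjusted p = 3.70e-11). Both genes code for membrane proteins that carry the electrical signal in the mature heart, and each day 5 library lay below each day 3 library.

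Many genes of the mesoderm states that precede the cardiac one fell. Of 20 primitive streak genes 13 were called lower and 4 higher (median log2 fold change -1.40), of 16 early cardiac mesoderm genes 7 lower and 1 higher (median -0.59), and of 14 tested paraxial and presomitic genes 7 lower and 2 higher (median -1.61). The summed TPM of the streak list did not fall, at 442, 423 and 464 at day 5 against 393, 435 and 323 at day 3. The sums of the early cardiac mesoderm list and of the paraxial list were lower in each day 5 library. WNT8A, a WNT ligand of the streak, had 0.443, 0.276 and 0.178 CPM in the day 5 libraries, against 10.1, 12.6 and 8.47 CPM in the day 3 libraries (log2 fold change -5.15 ± 0.33, edgeR adjusted p = 4.44e-12). MIXL1, a homeobox factor of the streak, had 31.4, 30.1 and 27.9 CPM in the day 5 libraries, against 69.4, 88.6 and 77.1 CPM in the day 3 libraries (log2 fold change -1.40 ± 0.16, edgeR adjusted p = 1.14e-07). TBXT, the streak's T-box factor, was already low, at 0.103 ± 0.0359 CPM at day 5 and 1.83 ± 0.128 CPM at day 3. EOMES, the T-box factor that activates MESP1, was not called and stood at 168 ± 1.59 CPM at day 5 and 188 ± 31.6 CPM at day 3 (log2 fold change -0.16 ± 0.16, edgeR adjusted p = 0.547).

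MESP1, the bHLH factor of the first cardiac mesoderm, had 11.8, 8.57 and 10.4 CPM in the day 5 libraries, against 52.2, 73.8 and 59.7 CPM in the day 3 libraries (log2 fold change -2.59 ± 0.32, edgeR adjusted p = 2.40e-07). APLNR, the apelin receptor that guides migrating mesoderm, had 583, 463 and 486 CPM in the day 5 libraries, against 1067, 1594 and 1546 CPM in the day 3 libraries (log2 fold change -1.46 ± 0.20, edgeR adjusted p = 1.20e-06). Both genes were lower in each day 5 library, and APLNR was still among the well-expressed genes. The surface receptors used to sort cardiac mesoderm were not called in the main fit: PDGFRA stood at 370.2 ± 61.1 CPM at day 5 and 595 ± 135 CPM at day 3 and KDR at 399.5 ± 31.5 CPM at day 5 and 266 ± 15.8 CPM at day 3, with edgeR adjusted p = 0.0532 for PDGFRA and 0.0876 for KDR. KDR was called higher with the 18 wild-type libraries alone, the 6 alone or no filter on low counts (edgeR adjusted p = 0.002185, 0.0202 and 0.0160). PDGFRA was called lower without day 3 replicate 3, without the filter or with a stricter one (edgeR adjusted p = 0.0263, 0.00453 and 0.04485). TBX6, the factor of presomitic mesoderm, had 9.62, 8.29 and 8.34 CPM in the day 5 libraries, against 61.7, 87.5 and 69.0 CPM in the day 3 libraries (log2 fold change -3.06 ± 0.24, edgeR adjusted p = 2.82e-11), and the NOTCH ligand genes of the somite clock DLL1 and DLL3 fell as well. UNCX, a homeobox gene of the posterior part of each somite, went the other way, to 4.17 CPM at day 5 against 1.18 CPM at day 3 (log2 fold change 1.82 ± 0.38, edgeR adjusted p = 0.00128).

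Of 20 pluripotency genes 9 were called lower at day 5 and 2 higher. POU5F1, the core factor OCT4, had 71.7, 58.3 and 58.6 CPM in the day 5 libraries, against 156, 198 and 259.8 CPM in the day 3 libraries (log2 fold change -1.70 ± 0.24, edgeR adjusted p = 2.91e-06). SALL4, ZFP42, DNMT3B, PRDM14, TDGF1 and NANOG also fell, with NANOG below 2 CPM on both days on average. LIN28A, the RNA-binding protein that blocks let-7 maturation, had 880.1, 864 and 770.5 CPM in the day 5 libraries, against 749.8, 973 and 1208 CPM in the day 3 libraries. Its libraries overlapped and no change was called (edgeR adjusted p = 0.289). PODXL, a surface glycoprotein used as a stem cell marker and also made by other epithelia, rose to 537, 579.8 and 530.4 CPM at day 5, against 203, 186 and 243 CPM at day 3 (log2 fold change 1.38 ± 0.17, edgeR adjusted p = 3.30e-07). Of 15 neuroectoderm and neural crest genes 6 were called lower and 2 higher, with 2 lower without day 3 replicate 2 and 3 lower without day 5 replicate 3. ZIC2 and SOX10 fell, at log2 fold changes of -1.39 ± 0.14 for ZIC2 and -1.87 ± 0.28 for SOX10, while NES, an intermediate filament gene of progenitor cells, rose by 0.73 ± 0.14.

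**Figure D3:**
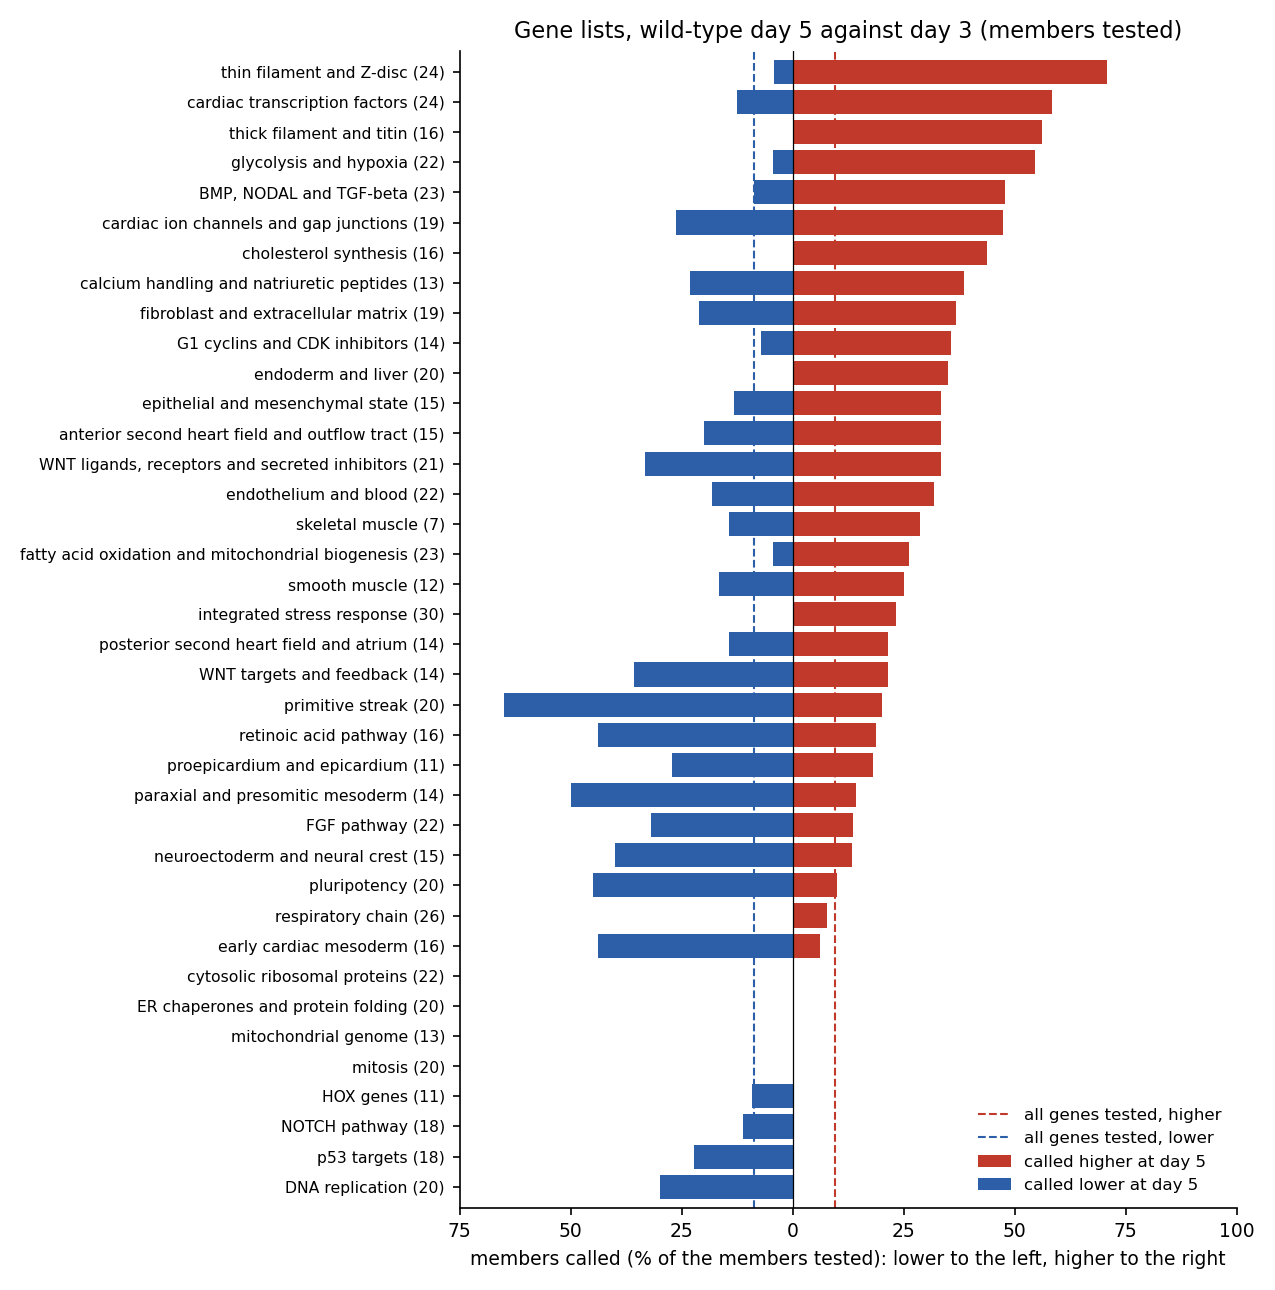
Share of the tested members of each of 38 gene lists called higher (bars to the right) or lower (bars to the left) at day 5 than at day 3 in wild-type cells, with the number of members tested in parentheses and dashed lines at the shares of all genes tested, 9.49% higher and 8.81% lower. Sarcomere and cardiac transcription factor lists lead at the top, the primitive streak list has the longest bar to the left with 13 of 20 members, and 4 lists have no bar.

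Signals of the TGF-beta superfamily were the signalling group with the most members rising, 11 of 23 called higher and 2 lower (0 lower without day 5 replicate 1). NODAL, the ligand that patterns the streak and later the left side of the body, had 212, 158 and 188 CPM in the day 5 libraries, against 27.5, 22.6 and 61.3 CPM in the day 3 libraries (log2 fold change 2.33 ± 0.29, edgeR adjusted p = 3.88e-07). LEFTY2, its secreted inhibitor and target, had 121, 81.7 and 120.2 CPM in the day 5 libraries, against 4.64, 8.65 and 7.68 CPM in the day 3 libraries (log2 fold change 3.95 ± 0.27, edgeR adjusted p = 1.70e-12). Both were higher in every day 5 library. TGFB2, a ligand of cushion and outflow tract formation, had 132, 141 and 158 CPM in the day 5 libraries, against 8.96, 3.73 and 5.55 CPM in the day 3 libraries (log2 fold change 4.55 ± 0.38, edgeR adjusted p = 1.15e-10). BMP5 had 78.8, 72.9 and 102 CPM in the day 5 libraries, against 22.6, 8.55 and 7.85 CPM in the day 3 libraries (log2 fold change 2.69 ± 0.37, edgeR adjusted p = 2.13e-06). FST, a secreted protein that binds activin, rose too and reached 19.9 CPM at day 5, against 3.76 CPM at day 3. BMP4 and the BMP target genes ID1 and ID3 were not called, while ID2 was called higher by 0.81 ± 0.14.

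WNT genes moved both ways over these days, which lay within the IWP2 interval. Of 21 ligands, receptors and secreted inhibitors 7 were called higher and 7 lower, and of 14 WNT targets 3 higher and 5 lower. The R-spondin genes, whose products amplify WNT signals at the receptor, rose. RSPO3 had 26.7, 27.0 and 41.1 CPM in the day 5 libraries, against 5.90, 3.06 and 5.33 CPM in the day 3 libraries (log2 fold change 2.73 ± 0.29, edgeR adjusted p = 1.77e-08), and RSPO2 averaged 7.06 ± 0.663 CPM at day 5 and 0.0748 ± 0.130 CPM at day 3. WNT5B, a ligand of the branch without beta-catenin, had 98.5, 64.4 and 67.7 CPM in the day 5 libraries, against 14.1, 13.9 and 17.9 CPM in the day 3 libraries (log2 fold change 2.32 ± 0.28, edgeR adjusted p = 1.26e-07). The secreted inhibitor SFRP1 fell, at 101, 138 and 108 CPM in the day 5 libraries, against 270.4, 398 and 324 CPM in the day 3 libraries (log2 fold change -1.51 ± 0.14, edgeR adjusted p = 1.86e-09), as did the targets SP5 and AXIN2. LEF1, TCF7 and LGR5, also read as WNT targets, were not called. BAMBI, a pseudoreceptor induced by both WNT and BMP, stood at 373 ± 50.9 CPM at day 5 and 99.3 ± 21.8 CPM at day 3 (edgeR adjusted p = 6.62e-07).

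In the FGF list 3 of 22 genes were called higher and 7 lower, against 9.49% higher and 8.81% lower over all genes tested. DUSP6, a phosphatase gene induced by ERK activity, had 231, 204 and 281 CPM in the day 5 libraries, against 63.1, 62.4 and 69.3 CPM in the day 3 libraries (log2 fold change 1.88 ± 0.15, edgeR adjusted p = 6.44e-11). IL17RD, a membrane inhibitor of FGF receptors that is also induced by FGF, had 22.1, 32.4 and 22.2 CPM in the day 5 libraries, against 95, 129 and 90.1 CPM in the day 3 libraries (log2 fold change -2.03 ± 0.18, edgeR adjusted p = 6.97e-10). These feedback genes thus moved in opposite directions, each without overlap of the libraries. The receptor genes FGFR1 to FGFR4 were not called. In the retinoic acid list 7 of 16 genes were called lower and 3 higher. CYP26A1, the enzyme that breaks retinoic acid down, had 14.5, 16.9 and 16.0 CPM in the day 5 libraries, against 66.7, 123 and 58.8 CPM in the day 3 libraries (log2 fold change -2.39 ± 0.33, edgeR adjusted p = 2.05e-06). ALDH1A2, which makes retinoic acid in the heart's inflow region, was low on both days at 0.737 ± 0.0786 CPM at day 5 and 2.94 ± 0.406 CPM at day 3, and the receptor genes RARA and RARG changed in opposite directions, by 0.91 ± 0.17 for RARA and -1.50 ± 0.15 for RARG. Of 18 NOTCH genes, DLL1 and DLL3 fell and none rose (6 at an unadjusted p under 0.05, and 0 called higher by DESeq2). Of 31 HOX genes 11 were tested, and HOXA3 alone was called, lower, at fewer than 1 CPM on both days, with 0 called lower without day 5 replicate 1 or 2. The shares called lower, 11.1% of the NOTCH and 9.09% of the HOX genes tested, were near the 8.81% over all genes tested.

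Matrix genes moved in both directions, with 7 of 19 called higher and 4 lower and a median log2 fold change of -0.01. COL3A1, a fibrillar collagen of connective tissue, had 174, 110.4 and 188 CPM in the day 5 libraries, against 3.42, 2.33 and 6.62 CPM in the day 3 libraries (log2 fold change 5.26 ± 0.39, edgeR adjusted p = 2.58e-11). COL1A1 and COL1A2, the chains that assemble into type I collagen, moved apart. COL1A1 had 3439.5, 2799 and 2790.1 CPM in the day 5 libraries, against 807, 684 and 1245 CPM in the day 3 libraries. COL1A2 had 603, 525 and 591 CPM in the day 5 libraries, against 1043, 1244 and 1289.6 CPM in the day 3 libraries (log2 fold changes 1.72 ± 0.21 for COL1A1 and -1.06 ± 0.16 for COL1A2, edgeR adjusted p = 2.36e-07 and 6.74e-06). Of their summed TPM, COL1A1 took 81.2, 80.4 and 77.4% in the day 5 libraries, against 36.6, 31.7 and 44.8% in the day 3 libraries. FN1, fibronectin, had 5837, 6211 and 5217 CPM in the day 5 libraries, against 2344, 2796 and 2884 CPM in the day 3 libraries (log2 fold change 1.11 ± 0.23, edgeR adjusted p = 7.06e-04), and BGN fell to 5.89, 6.25 and 5.35 CPM at day 5, against 52.2, 57.6 and 62.3 CPM at day 3.

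Cadherins moved apart as well. CDH2, N-cadherin, which joins heart muscle cells, had 264, 270.2 and 327 CPM in the day 5 libraries, against 131, 133 and 117 CPM in the day 3 libraries. CDH11, a cadherin of mesenchyme, had 18.6, 31.1 and 26.2 CPM in the day 5 libraries, against 247, 274 and 155 CPM in the day 3 libraries. The groups of neither gene overlapped, with log2 fold changes of 1.18 ± 0.16 for CDH2 and -3.15 ± 0.25 for CDH11 (edgeR adjusted p = 1.05e-06 and 3.60e-11). CDH2 took 92.6, 87.3 and 91.3% of their summed TPM in the day 5 libraries, against 25.4, 22.6 and 40.5% in the day 3 libraries. VIM, the intermediate filament of mesenchymal cells, stood at 7313 ± 484 CPM at day 5 and 3783 ± 875 CPM at day 3 (log2 fold change 0.95 ± 0.14, edgeR adjusted p = 6.81e-06), and the mesenchymal factor TWIST1 rose by 1.11 ± 0.26. In the whole list of epithelial and mesenchymal state 5 of 15 genes were called higher and 2 lower (1 lower without day 3 replicate 1 or 2 or day 5 replicate 1 or 3), and CDH1, EPCAM, SNAI1, ZEB1 and ZEB2 were not called. Of 12 smooth muscle genes 3 were called higher and 2 lower. ACTA2, an actin of smooth muscle and of early heart muscle, had 38.0, 26.9 and 50.9 CPM in the day 5 libraries, against 3.06, 2.90 and 4.04 CPM in the day 3 libraries (log2 fold change 3.54 ± 0.25, edgeR adjusted p = 3.48e-12), whereas the smooth muscle myosin gene MYH11 and TAGLN were not called.

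Defining markers of other cell types were used to ask which cells the libraries could hold. In bulk RNA a change in the number of cells of a type and a change of RNA per cell cannot be told apart. The 5 cardiomyocyte markers (TNNT2, ACTN2, MYH6, MYL7 and NKX2-5) summed to 2642, 2267 and 3672 TPM in the day 5 libraries, against 186, 142 and 264 TPM at day 3, and all 5 were called higher. The pluripotency markers POU5F1, NANOG, SOX2 and PRDM14 summed to 121, 111 and 105 TPM at day 5, against 332, 368 and 374 TPM at day 3. Endothelium and blood markers summed to 3.05, 3.37 and 2.86 TPM at day 5, against 1.69, 2.33 and 1.94 TPM at day 3, with 3 of 6 called higher and 5 of 6 below 1 TPM in every library. In the longer endothelium and blood list 7 of 22 genes were called higher and 4 lower, with GATA2, a zinc finger factor of blood progenitors and trophoblast, at 136 ± 15.3 CPM at day 5 and 51.2 ± 6.66 CPM at day 3, while TAL1, TEK, LMO2, FLI1 and CD34 were called higher at means below 6 CPM. The number lower in that list was 2 without day 3 replicate 2, without day 5 replicate 3 or with the 6 libraries alone, and with an offset for transcript length 4 genes were called higher and 1 lower. Fibroblast markers summed to 706, 662 and 639 TPM at day 5, against 216, 179 and 277 TPM at day 3, with 3 of 5 called higher. Nearly all of that sum was COL1A1, whose partner chain gene COL1A2 fell as given above, and 2 of the 5 markers stayed below 1 TPM in every library. Epicardium markers summed to 8.35, 10.8 and 9.36 TPM at day 5, against 7.31, 5.08 and 9.24 TPM at day 3, and in the proepicardium and epicardium list 2 of 11 tested genes were called higher and 3 lower. The number higher was 0 without day 3 replicate 2 or day 5 replicate 3, and 1 without each of the other libraries in turn and with DESeq2, while the number lower was 1 with the length offset. MYOD1, MYF5 and MYOG, which define skeletal muscle, and PAX6, SOX1 and SIX3 of neuroectoderm summed to less than 1 TPM in each library, with MYF5 and SOX1 at 0. In the skeletal muscle list 2 of 7 tested genes were called higher and 1 lower, PAX7, the satellite cell factor, which stood at 4.90 ± 0.881 CPM at day 5 and 20.7 ± 4.74 CPM at day 3.

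Endoderm markers were present on both days. SOX17, FOXA2, AFP, APOA1, TTR and EPCAM summed to 68.8, 94.5 and 82.4 TPM at day 5, against 46.1, 51.8 and 37.9 TPM at day 3. Of the 6, APOA1 and TTR were called higher, the other 4 had no call, and 1 stayed below 1 TPM in every library. In the longer endoderm and liver list 7 of 20 genes were called higher and 0 lower (0 lower also by DESeq2, with 10 of 20 at an unadjusted p under 0.05 in either direction). APOA1, an apolipoprotein of liver, gut and yolk sac, had 21.6, 19.1 and 19.3 CPM in the day 5 libraries, against 1.53, 1.61 and 3.65 CPM in the day 3 libraries (log2 fold change 3.16 ± 0.33, edgeR adjusted p = 1.37e-08). HNF4A, a nuclear receptor of liver and visceral endoderm, had 8.48, 11.2 and 9.32 CPM in the day 5 libraries, against 2.34, 4.14 and 3.93 CPM in the day 3 libraries (log2 fold change 1.49 ± 0.26, edgeR adjusted p = 8.13e-05). TTR had 81 counts over the day 5 libraries and 0 at day 3, at least 28.5-fold higher with the floor of 3 counts. SOX17, FOXA2 and EPCAM were not called. What share of the cells these transcripts came from was not tested.

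Glycolysis genes and their regulators mostly rose where they changed, with 12 of 22 genes called higher and 1 lower and a median log2 fold change of 0.56. PDK1, the kinase that inhibits the entry of pyruvate into the citric acid cycle, had 438, 528 and 636 CPM in the day 5 libraries, against 93.9, 93.6 and 82.2 CPM in the day 3 libraries (log2 fold change 2.57 ± 0.16, edgeR adjusted p = 2.72e-13). LDHA, lactate dehydrogenase, had 899, 881 and 766 CPM in the day 5 libraries, against 271, 374 and 428 CPM in the day 3 libraries (log2 fold change 1.25 ± 0.18, edgeR adjusted p = 2.80e-06). VEGFA, the endothelial growth factor induced by low oxygen, had 289, 297 and 317 CPM in the day 5 libraries, against 71.6, 86.2 and 76.7 CPM in the day 3 libraries (log2 fold change 1.95 ± 0.12, edgeR adjusted p = 4.07e-13). Each of these 3 genes lay higher in every day 5 library. The glucose transporter gene SLC2A3 and the enzyme genes HK1, GPI and PGK1 also rose, by log2 fold changes from 0.74 for HK1 to 1.61 for SLC2A3, and the lactate exporter gene SLC16A3 by 0.82 ± 0.20. SLC2A3 has a close copy in SLC2A14, and several glycolytic genes have processed copies that may share reads. HK2 was the member called lower, a call lost in 4 of 14 other fits. GAPDH, PKM, ALDOA, CA9 and BNIP3 were not called, and CA9 stayed below 1 CPM on average on both days.

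Oxidative genes gave fewer calls than the glycolysis list. Of 23 genes of fatty acid oxidation and mitochondrial biogenesis 6 were called higher and 1 lower. PPARGC1A, a coactivator of mitochondrial biogenesis, had 22.4, 18.4 and 32.4 CPM in the day 5 libraries, against 1.35, 0.414 and 0.617 CPM in the day 3 libraries (log2 fold change 4.90 ± 0.49, edgeR adjusted p = 4.40e-09). FABP3, the fatty acid carrier of heart muscle, had 17.4, 12.8 and 21.9 CPM in the day 5 libraries, against 0.630, 1.09 and 1.68 CPM in the day 3 libraries (log2 fold change 3.96 ± 0.30, edgeR adjusted p = 1.75e-11), and MB, myoglobin, stood at 5.23 ± 0.976 CPM at day 5 and 0.240 ± 0.145 CPM at day 3. Of 26 respiratory chain genes 2 were called higher, COX6A2 and ATP5F1B, and 0 lower (5 at an unadjusted p under 0.05, and 4 higher and 0 lower by DESeq2), and the call of ATP5F1B was lost in 6 of 14 other fits. The share called higher, 7.69%, was near the 9.49% over all genes tested, and the number higher ranged between 1 and 4 when 1 library was left out. The 13 mRNA genes of the mitochondrial genome gave 0 calls (3 at an unadjusted p under 0.05, 0 by DESeq2, and 2 called higher without day 3 replicate 3). Cholesterol synthesis genes had 7 of 16 called higher and 0 lower, with INSIG1, the sterol sensor, at 101 ± 7.33 CPM at day 5 and 39.2 ± 4.67 CPM at day 3 and MVK, mevalonate kinase, at 75.4 ± 9.59 CPM at day 5 and 27.0 ± 7.57 CPM at day 3 (edgeR adjusted p = 4.21e-07 and 3.69e-06). DESeq2 called 11 of the 16 higher, and 14 had an unadjusted p under 0.05.

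Of 20 mitosis genes 0 were called (2 at an unadjusted p under 0.05, and 1 lower by DESeq2), with 2 called lower without day 3 replicate 3 and 1 without day 3 replicate 1 or day 5 replicate 2. Of 20 DNA replication genes 6 were called lower and 0 higher, with fitted decreases between -0.30 for MCM6 and -0.57 for MCM10. That count was 0 with the 6 libraries alone and ranged between 0, without day 3 replicate 2 or day 5 replicate 1, and 5 when 1 library was left out. MKI67, the proliferation marker, stood at 168 ± 33.5 CPM at day 5 and 218 ± 119 CPM at day 3 and was not called (edgeR adjusted p = 0.596). Among G1 regulators 5 of 14 were called higher and 1 lower. CCND2, a D-type cyclin, had 285, 304 and 291 CPM in the day 5 libraries, against 135, 146 and 136 CPM in the day 3 libraries (log2 fold change 1.08 ± 0.13, edgeR adjusted p = 2.38e-07). CDKN1C, a CDK inhibitor, had 105, 88.8 and 117 CPM in the day 5 libraries, against 33.1, 37.9 and 41.5 CPM in the day 3 libraries (log2 fold change 1.47 ± 0.24, edgeR adjusted p = 1.99e-05), and CDKN2B rose as well. CCND1 was the member that fell (log2 fold change -0.57 ± 0.12, edgeR adjusted p = 6.00e-04). Of 18 p53 targets 4 were called lower, and CDKN1A was not called.

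Of 30 genes of the integrated stress response, the program that PERK and related kinases switch on, 7 were called higher and 0 lower, and the number higher ranged between 4, without day 3 replicate 1, and 9 when 1 library was left out. STC2, a secreted glycoprotein, had 20.8, 18.6 and 22.5 CPM in the day 5 libraries, against 3.74, 3.47 and 6.62 CPM in the day 3 libraries (log2 fold change 2.17 ± 0.20, edgeR adjusted p = 7.77e-10). VLDLR, a lipoprotein receptor, had 134, 138 and 148 CPM in the day 5 libraries, against 49.8, 40.7 and 57.1 CPM in the day 3 libraries (log2 fold change 1.51 ± 0.14, edgeR adjusted p = 1.63e-09). The amino acid transporter gene SLC7A5 rose by 0.92 ± 0.15 and PPP1R15A, which restores translation, by 0.82 ± 0.16. ATF4, DDIT3, ASNS and CHAC1 were not called, with ATF4 at 375 ± 18.6 CPM at day 5 and 334 ± 58.9 CPM at day 3 (edgeR adjusted p = 0.587). Of 20 ER chaperone and folding genes 0 were called (7 at an unadjusted p under 0.05, and 0 by DESeq2), but 2 were called lower without day 3 replicate 1, 2 without day 3 replicate 3 and 1 with the length offset. HSPA5, the chaperone BiP, stood at 474 ± 39.9 CPM at day 5 and 643 ± 81.0 CPM at day 3 (log2 fold change -0.44 ± 0.18, edgeR adjusted p = 0.0999). Of 22 cytosolic ribosomal protein genes 0 were called, 0 had an unadjusted p under 0.05 and DESeq2 called 0.

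Set in the wild-type time course of days 0, 1, 2, 3, 5 and 10, the genes that rose between day 3 and day 5 mostly had their highest mean later. Of the 1876 genes called higher, day 0 held the highest mean of 146, day 5 of 596 (31.8%) and day 10 of 1004 (53.5%). Of the 1741 called lower, day 0 held the highest mean of 477 (27.4%), day 1 of 336, day 2 of 345, day 3 of 437 (25.1%) and day 10 of 146 (8.39%). These counts describe means of 3 libraries and carry no test. The choice of genes fixes part of them, since a gene called higher cannot peak at day 3 nor one called lower at day 5. MYH6 had means of 0.297, 0.250, 0.269, 30.6, 3683 and 7536 CPM over the 6 days, and NKX2-5 0.113, 0.0436, 0.327, 2.95, 126 and 738 CPM. PDK1 followed another course, with 48.4, 384, 370.5, 89.9, 534 and 549.5 CPM, so that its day 3 mean was a dip between higher neighbours. MESP1 ran through 0.0216, 9.56, 163, 61.9, 10.3 and 7.82 CPM, with its highest mean at day 2, and LHX1 and TBX6 also had theirs at day 2.

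Some genes were high at day 5 and low again at day 10. BRINP2 had means of 0.391, 38.7 and 1.68 CPM at days 3, 5 and 10. NTRK2 had 0.734, 40.6 and 3.62 CPM, and LEFTY2 6.99, 108 and 17.6 CPM on the same days. NODAL had earlier peaked at day 1, at 380.5 CPM, before its 186 CPM at day 5. ISL1 was at 47.1, 99.4 and 49.1 CPM at days 3, 5 and 10. The later part of these courses was not tested.

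**Figure D4:**
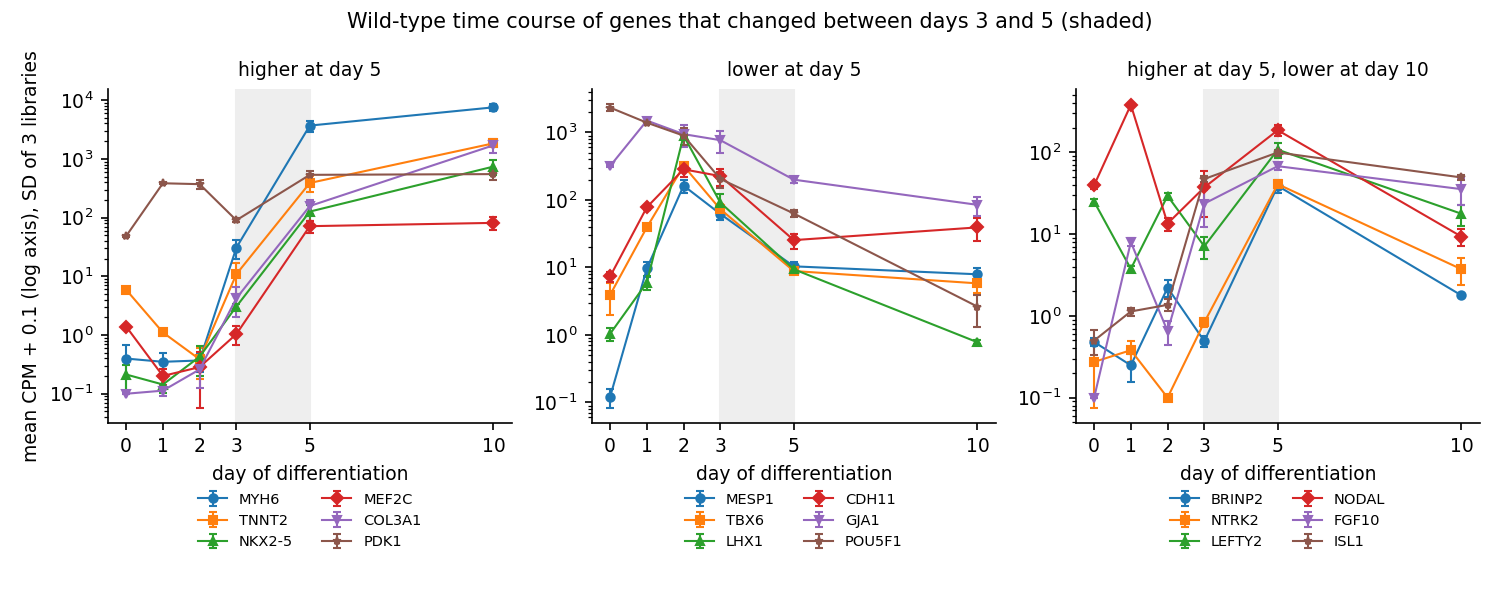
Mean CPM + 0.1 on a log axis against the day of differentiation for 18 genes in wild-type cells, with bars for the SD of 3 libraries and the interval between days 3 and 5 shaded. The left panel holds genes higher at day 5 than at day 3, the middle panel genes that were lower and the right panel genes that were higher at day 5 and had a lower mean at day 10.

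The same interval in PERK KO cells serves to show where the wild-type step differed. The PERK KO groups are H1 cells labelled as lacking PERK, on the same protocol, with 3 libraries at day 5 and 3 at day 3; how the gene was disrupted is not given in the sources used here. EIF2AK3 transcripts were at 16.8, 15.9 and 17 CPM in the PERK KO day 5 libraries and 18.2, 16.9 and 16.8 CPM at day 3, against 17.4, 22.3 and 20.1 CPM and 27.7, 21.6 and 16.7 CPM in wild type, so the RNA level gives no check of the protein. Between the 2 genotypes' steps 4073 genes (20.6%) differed by the interaction term, 2108 (10.7%) with the wild-type step above the PERK KO step. That count was 2473 without wild-type day 3 replicate 1 and 6001 without wild-type day 3 replicate 3. In PERK KO cells 3226 genes (16.3%) were called between day 5 and day 3, 1474 (7.45%) of them higher. Of the 3617 wild-type calls, 487 were called the same way in PERK KO cells, which is 13.5% of the wild-type and 15.1% of the PERK KO calls, and 437 the opposite way, 12.1% of the wild-type and 13.5% of the PERK KO calls.

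Over all 19772 genes tested, the interaction was called with the wild-type step above the PERK KO step for 2108 (10.7%) and below it for 1965. By list, the wild-type step lay above the PERK KO step for 12 of 24 thin filament and Z-disc genes and below it for 2. The thin filament median log2 fold change was 2.32 in wild type and -0.01 in PERK KO cells. For the thick filament list the medians were 2.58 in wild type and 0.67 in PERK KO cells, with 3 of 16 genes called above and 0 below. Glycolysis and hypoxia genes differed the most often, 17 of 22 above and 0 below, with medians of 0.56 in wild type and -0.48 in PERK KO cells. Of the cardiac transcription factors 5 of 24 were called above and 2 below, the latter near the share below over all genes. In the neuroectoderm and neural crest list 7 of 15 were called with the wild-type step below the PERK KO step and 3 above, with medians of -0.23 in wild type and 1.26 in PERK KO cells. Primitive streak genes had medians of -1.40 in wild type and -1.58 in PERK KO cells, yet 5 of 20 were called above and 4 below.

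Among the genes with the smallest interaction p that reached 20 CPM, TPM1 had 756, 704 and 747 CPM in PERK KO day 5 libraries and 799, 853 and 847 CPM at day 3, and no call in that genotype (wild-type step minus PERK KO step 3.11 ± 0.20 log2, edgeR adjusted p = 1.20e-12). EPHA4, an ephrin receptor, had 81.4, 113 and 84.2 CPM in the day 5 libraries, against 258, 259 and 229 CPM in the day 3 libraries in wild type, and 139, 113 and 109.5 CPM at day 5 and 12.1, 7.94 and 7.62 CPM at day 3 in PERK KO cells (difference -5.13 ± 0.28, edgeR adjusted p = 3.66e-14). EPHA4 thus fell in wild type and rose in PERK KO cells. TXNIP, an inhibitor of glucose uptake, had 325, 336 and 297 CPM in the day 5 libraries, against 107, 123 and 147 CPM in the day 3 libraries in wild type, and 14.4, 16.5 and 16.1 CPM at day 5 and 83.8, 95.8 and 98.4 CPM at day 3 in PERK KO cells (difference 3.91 ± 0.24, edgeR adjusted p = 8.72e-13). GREB1L and RHOU likewise fell in wild type and rose in PERK KO cells. SCUBE1, STAC, CCDC80 and CHST15 rose in wild type, while in PERK KO cells CCDC80 rose less, CHST15 fell, and SCUBE1 and STAC were not called.

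**Figure D5:**
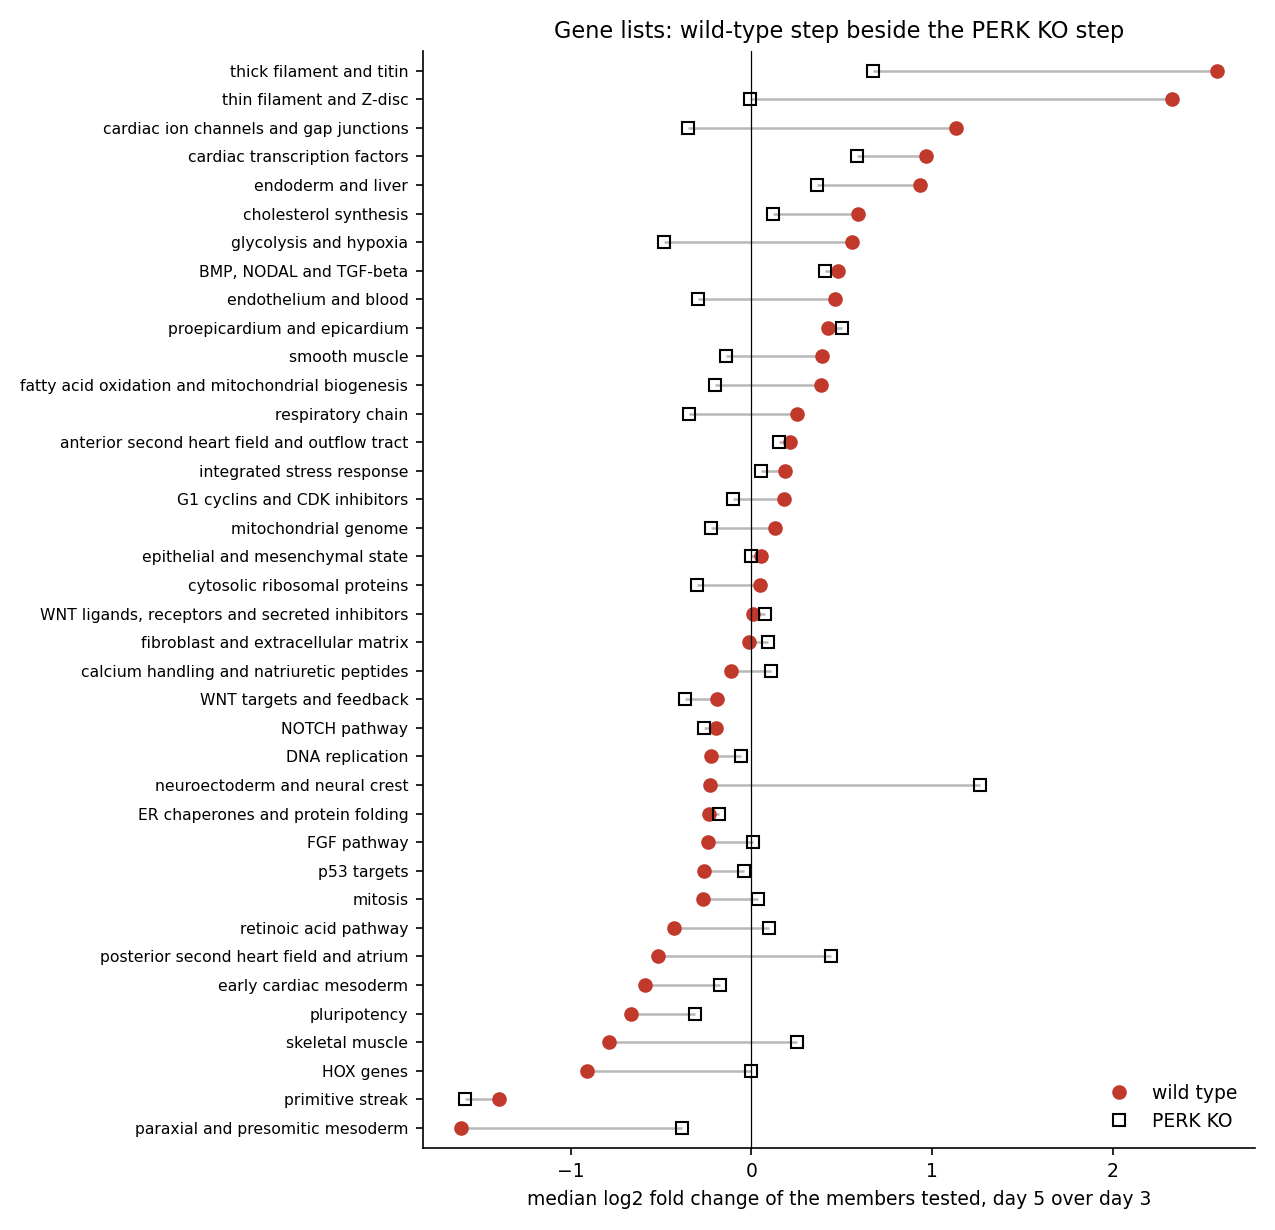
Median log2 fold change of the tested members of each of 38 gene lists, day 5 over day 3 (horizontal axis), in wild-type cells (filled circles) and PERK KO cells (open squares), with a line joining the pair of each list. The widest gaps are those of the thin filament and Z-disc list, at 2.32 in wild type and -0.01 in PERK KO cells, and of the thick filament list.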

How the data were processed

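RNA was measured in 36 libraries, 2 genotypes at 6 days with 3 replicates each. Per the labels' protocols, RNA was isolated with NucleoZol and sequenced as 150 bp paired ends on an Illumina HiSeq instrument after poly(A) mRNA library preparation; whether the kit kept strand is not given in the sources used here. The authors used CASAVA, FastQC, STAR and RSEM with GRCh38 (hg38), per the submitters' processing notes, with no versions given. They deposited expected counts (estimated counts per gene) and TPM values. Per the file headers, the per-sample tables also hold effective lengths, used only for the length offset and the library check. Genes were kept under the identifiers and symbols of the files.

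Expected counts were rounded to whole numbers. Genes passing edgeR's filterByExpr (19772) were scaled by TMM and fitted in all 36 libraries, 1 term per group, with edgeR 4.0.16 (quasi-likelihood test, 24 residual degrees of freedom, common biological coefficient of variation 18.7%), limma 3.58.1 and R 4.3.3. The interaction is the wild-type step minus the PERK KO step. Calls are Benjamini-Hochberg adjusted p under 0.05 over all genes tested, and standard errors come from the F statistic. With 3 against 3 libraries an exact two-sided permutation test cannot go below 0.1, so no such test was used. Simulated data with 200 changed genes among 19523 genes were recovered at 20.9% for 1.5-fold, 65.7% for 2-fold and 97.0% for 4-fold changes. False calls there numbered 6 (4.69% of the calls). With the 6 libraries alone the recovery was 2.99%, 43.3% and 95.5%, and false calls numbered 10 (9.62% of the calls). The simulated counts took each gene's spread from the main fit, the same in every group. The wider spread of the day 3 libraries was thus not simulated, and the false calls do not measure its effect. The changed genes all had a day 3 mean of at least 1 CPM and were far fewer than the 3617 called, so recovery of lower genes was not measured. Where a group held 0 reads, a floor of 3 counts over its 3 libraries was used. Alternatives were DESeq2 1.42.0, RLE scaling, other filters, fewer libraries, a replicate block, a length offset and leaving out each library.

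The members and gene lists were chosen with earlier results of these data known. Genes named are the 12 largest called changes per direction that reach 20 CPM without overlap, up to 8 called members with the smallest p per list with members moving against their list or not called, EIF2AK3, and the 10 smallest interaction p-values, apart from a few that are not reported here. Depth was 14.0 M to 25.9 M counts per library. Low-count genes are limited most, and near-identical gene copies (actins, MYH6 and MYH7, pseudogenes of glycolytic genes and of POU5F1) and overlapping or antisense genes may share reads.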

Additional observations from a re-analysis of the deposited data

Results flagged for a closer look

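The day 5 over day 3 step differed between wild-type and PERK KO cells for 4073 genes by the interaction term of the edgeR fit, and the 9 genes named below were listed for that reason, with the difference given as wild-type step minus PERK KO step in log2. GREB1L had the widest difference of the 9, at -6.80, with a log2 fold change of -1.59 in wild-type cells and 5.21 ± 0.28 in PERK KO cells. EPHA4 followed at -5.13 and RHOU at -3.48. Each of these 3 genes fell in wild-type cells and rose in PERK KO cells. SCUBE1 differed by 4.03, TXNIP by 3.91, CCDC80 by 3.84, STAC by 3.74, CHST15 by 3.60 and TPM1 by 3.11. These 6 rose in wild-type cells, while TXNIP and CHST15 fell and CCDC80 rose in PERK KO cells and SCUBE1, STAC and TPM1 were not called there. Both genotypes come from 1 cell line, the PERK KO clones are not described in the sources used here, and clone and genotype cannot be told apart.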

How the results depend on the processing

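Of 218 genes named above and tested, 155 were called. Of these, 143 kept their call under every alternative without a replicate block, 12 lost it under at least 1, and 0 changed direction under any. The 12 are ALDH1A2, ATP2A2, ATP5F1B, CD34, FLI1, HK2, HOXA3, IRX4, ISL1, MCM10, MCM6 and TBX5. With a replicate block 21 of the 155 lost their call in the 6 libraries alone and 1 in all 36 libraries. Many of the named genes were picked for large changes or small p-values, so these shares do not carry over to all called genes. Of the 63 named genes that were not called, 10 were called under at least 1 alternative without a block. The 10 are ALDOA, BMP4, CDH1, KDR, MYH11, NR2F2, PDGFRA, TEAD1, TNNI3 and TTN.

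The number of genes called between day 5 and day 3, 3617 with 1876 higher and 1741 lower, was 4010 with DESeq2 and 3647 with RLE scaling. It was 2318 with 1047 lower when the 6 libraries were fitted alone, where the fit has 4 residual degrees of freedom. Leaving out 1 library gave 2586 to 4561 calls, 1354 to 2358 higher and 1232 to 2203 lower. The interaction count of 4073 was 2473 to 6001 when 1 library was left out, 1356 to 3092 with the wild-type step above and 1117 to 2909 below (lowest without wild-type day 3 replicate 1, highest without wild-type day 3 replicate 3). The other alternatives without a block kept these counts within 1.5 times. Among lists with 5 or more calls in a direction, the length offset left 4 of 7 endothelium and blood genes higher and 3 of 5 WNT targets lower, the 18 wild-type libraries alone left 3 of 6 neuroectoderm and 3 of 6 DNA replication genes lower, dropping the low-count filter left 1 DNA replication gene lower, and the 6 libraries alone left 4 FGF, 3 neuroectoderm and 0 DNA replication genes lower and 3 G1 and 4 integrated stress response genes higher. No source used here says that replicate numbers pair these libraries. Deviations of same-numbered libraries from the mean of their day correlated at -0.44, 0.17 and -0.29, and not every library correlated best with its own number. These correlations depend on one another with 3 libraries per day, so they cannot decide whether the numbers pair the libraries. With the replicate number as a block the count was 3762 in all 36 libraries and 1367 in the 6 libraries alone (798 higher, 569 lower).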
